A study of Mus musculus with 8 samples.

Results

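The comparison set interfollicular epidermis (IFE), the epidermis between hair follicles, of newborn mice with a miR-200 transgene against IFE of control pups. Its members were the 4 libraries titled as IFE among the 8 RNA-seq libraries of the series, from transgenic pups 4 and 6 and control pups 3 and 5, all at postnatal day 0.5. The other 4 libraries held hair germ, the early epithelial bud of the follicle, of the same 4 pups. Both transgenic pups had the genotype pTRE2-200bcl/K14rtTA, in which a transactivator under the keratin 14 promoter drives a doxycycline-responsive construct in basal epithelial cells. Control pup 3 carried K14rtTA alone and control pup 5 carried pTRE2-200bcl alone, so no control had both parts and the 2 controls differed in genotype. All pups were of mixed strain, all dams ate doxycycline chow while pregnant, and the IFE cells of both arms were sorted as positive for the reporter K14RFP, high for alpha6 integrin and low for P-cadherin. Each pup gave 1 library per population, and expression was compared over all 14176 genes that passed a filter on low counts.

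The miR-200 family consists of 5 microRNAs made from 2 genomic clusters in the mouse. They are abundant in epithelia, and their best known targets are Zeb1 and Zeb2, transcription factors that repress E-cadherin and other epithelial genes. A microRNA binds messages mainly through its seed, bases 2 to 8, and pairing in a 3′UTR lowers the level of the message or its translation. The basal layer of IFE holds the dividing keratinocytes, which are anchored to the basement membrane by integrins and type XVII collagen, while Langerhans cells, macrophages, lymphocytes and melanocytes live in or under it.

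The 5 mature sequences are shown because their 2 seeds, in capitals, define the sites counted in the messages later on. They are RefSeq entries on GRCm38.p6, written 5′ to 3′, the first 3 sharing 1 seed and the last 2 the other.
miR-200b-3p: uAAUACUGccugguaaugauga
miR-200c-3p: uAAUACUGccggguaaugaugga
miR-429-3p: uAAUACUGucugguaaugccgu
miR-200a-3p: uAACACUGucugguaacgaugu
miR-141-3p: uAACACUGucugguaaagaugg
In a message the matching sites read CAGTATT for the first group and CAGTGTT for the second, which differ at 1 base. The hairpins of miR-200b, miR-200a and miR-429 lie together on chromosome 4 and those of miR-200c and miR-141 on chromosome 6.

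The libraries held 7393908 and 12253892 gene-assigned counts for control pups 3 and 5, and 9113851 and 11684585 for transgenic pups 4 and 6. The 45S ribosomal RNA entry Rn45s took 30.6% and 3.75% of those counts in the controls and 29.0% and 4.17% in the transgenic pups, so each arm held 1 library rich in it. Pup 4 was male by expression, with 1535 Y-linked counts against 1 to 4 in the other 3 libraries. Pearson r of log2 CPM over tested genes, which all share these libraries, was 0.935 within the control pair, 0.969 within the transgenic pair and 0.870 to 0.903 between arms. With 2 pups per arm, changes were called by edgeR's quasi-likelihood test across all 8 libraries at a Benjamini-Hochberg adjusted p under 0.05. Levels are TMM-scaled CPM, the count of a gene relative to the depth of its library, and SE is that of the fitted log2 fold change.

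A feature for the microRNA precursor separated the arms. The feature miR200primary was counted by the authors beside the annotated genes, and its position is not stated in these sources, so transcripts of the transgene and of the native locus cannot be told apart in it. It stood at 3.83 and 2.63 CPM in control pups 3 and 5 and at 607 and 714 CPM in transgenic pups 4 and 6. Both transgenic libraries lay far above both controls, as the labels have it. The hairpins themselves gave almost no counts: Mir200a, Mir200b and Mir429 had 0 in all 4 libraries, Mir141 had 4 and 1 and Mir200c 0 and 2 in transgenic pups 4 and 6, and these total RNA libraries do not measure mature microRNA.

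Across all tested genes, more genes were called higher than lower in transgenic IFE, and the rises were larger than the falls. The test called 707 genes higher (4.99% of 14176) and 192 lower (1.35%), and in each of the 899 (6.34%) both transgenic libraries lay outside the range of the controls. Over all genes such separation was seen in 27.9% on the higher and 25% on the lower side. Counts of called or separated members of the gene lists below stand against these shares. Rises were large, with a median log2 fold change of 3.40 and with 403 of 707 above 8-fold, whereas falls had a median size of 1.10 and 9 of 192 exceeded 4-fold. Among the 7932 genes at 10 CPM or more in both controls 245 rose (3.09%) and 192 fell (2.42%). The other 6244 genes, of which 462 rose (7.4%) and 0 (0%) fell, were low in a control and so had little room to fall, and nothing is read from that count. When libraries were scaled by their size only, the median over genes was 0.15 in place of -0.01, and the share of calls that were higher went from 78.6% to 95.4%. The counts fell to 203 higher and 4 lower without both libraries of pup 4, and to 188 and 7 without the libraries rich in Rn45s (control pup 3 and transgenic pup 4).

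**Figure D1:**
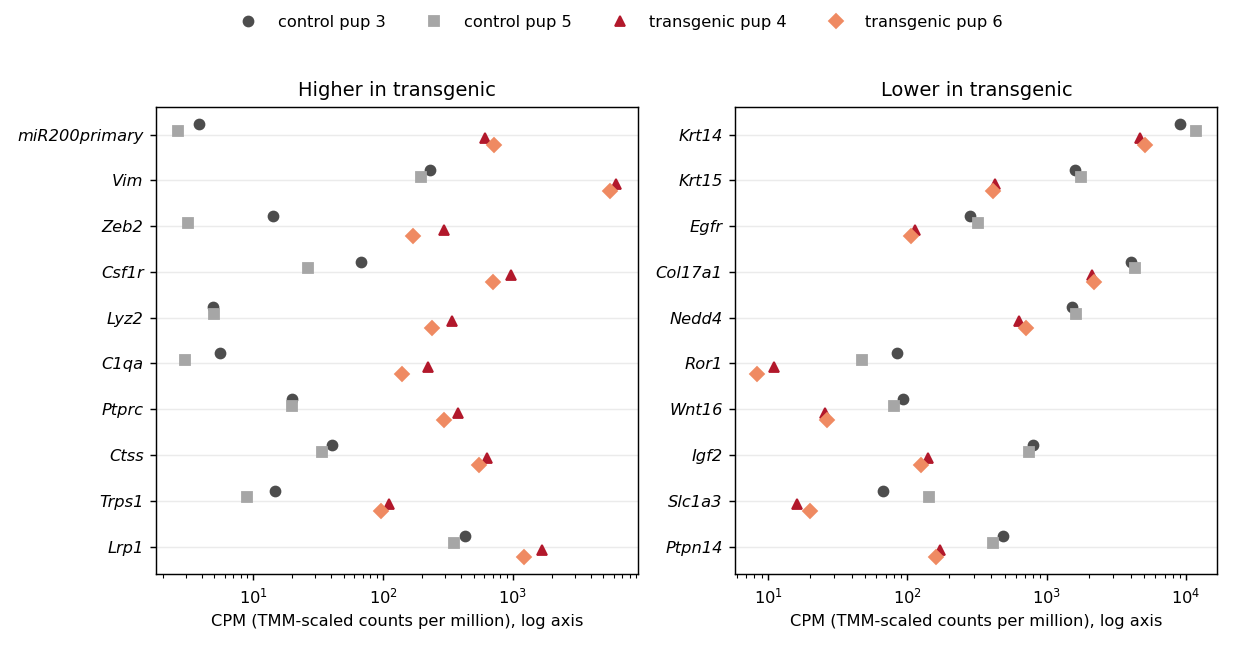
CPM in each of the 4 IFE libraries (log axis) for 10 genes called higher, left, and 10 called lower, right. Each point is 1 library, with circles and squares for control pups 3 and 5 and triangles and diamonds for transgenic pups 4 and 6. In all 20 genes, as in all 899 called genes, the transgenic pair lies outside the range of the control pair.

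Vim had the largest rise among abundant genes. Vimentin, the intermediate filament protein of mesenchymal and blood cells (chr2:13574311-13582826 on GRCm38.p6), stood at 231 and 196 CPM in the controls and at 6306 and 5601 CPM in transgenic pups, which made it one of the most abundant messages of the transgenic libraries. The log2 fold change was 4.80 (SE 0.25, edgeR adjusted p = 4.72e-06). The controls lay close together and far from the transgenic pair. Other abundant genes that rose were those of the endocytic receptor Lrp1 (432 and 354 to 1688 and 1218 CPM, log2 fold change 1.89), the actin-binding peptide thymosin beta 4, Tmsb4x (368 and 412 to 841 and 982 CPM, 1.22), the lysosomal protein prosaposin, Psap (1.19), and the clathrin heavy chain, Cltc (0.80). In bulk samples such as these, fewer cells of a type and less RNA per cell cannot be told apart.

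Zeb2, the best known target of the family, was higher and not lower in transgenic IFE. It encodes a zinc finger repressor (chr2:44983512-45117442) and stood at 14.1 and 3.14 CPM in the controls against 295 and 169 CPM in transgenic pups, without overlap (log2 fold change 4.90, SE 0.54, edgeR adjusted p = 2.97e-04). Zeb1 stood at 1.04 and 2.89 CPM against 12.3 and 13.2 CPM, but was not called (2.53, SE 0.81, adjusted p = 0.0944). Cdh1, E-cadherin, which these factors repress, was at 1387 and 1898 CPM in controls and 1119 and 1204 CPM in transgenic pups (-0.50, adjusted p = 0.259), and the epithelial adhesion gene Epcam at 75.9 and 121 against 137 and 145 CPM (0.51, adjusted p = 0.399). Of 14 tested genes of a list on epithelial-mesenchymal transition 4 rose and 1 fell: besides Vim and Zeb2 the rises were those of S100a4 (4.35), a calcium-binding protein of motile and myeloid cells, and the integrin subunit gene Itgav. The fall was that of Snai2 (-1.08), a repressor that basal keratinocytes also make, from 183 and 282 to 100 and 120 CPM. The list median was 0.69, against -0.01 over all genes.

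Genes taught as miR-200 targets did not move together. Of 39 tested members of that list 4 rose and 1 fell, with a median of -0.10 that turned to 0.08 with library size alone. Besides Zeb2 the rises were those of Nrp1 (15.2 and 4.50 to 55.2 and 34.4 CPM), a co-receptor for semaphorins and VEGF, Wipf1 (5.57 and 1.53 to 53.1 and 45.4 CPM), a partner of the Wiskott-Aldrich protein, and the formin gene Fhod1. The fall was that of Sh3pxd2a (796 and 698 to 387 and 366 CPM, log2 fold change -0.99, edgeR adjusted p = 0.0154), a scaffold of podosomes. Of 18 tested genes of the microRNA machinery 0 were called by edgeR, with 2 at an unadjusted p under 0.05, and 0 by DESeq2, and the nuclear processing enzyme gene Drosha stood at 71.2 and 106 against 55.7 and 68.1 CPM. Without pup 4, or without the Rn45s-rich libraries, 1 gene of the target list rose and 0 fell, with medians of 0.04 and -0.06.

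Counting seed matches in the 3′UTRs gave a graded picture instead. The count covered the longest annotated 3′UTR (GENCODE M21) of 12643 tested genes, and the classes compared here were the 7467 of them at 10 CPM or more in both controls. Genes with 0 CAGTATT sites (6106) had a median log2 fold change of -0.11, those with 1 site (1108) -0.26 and those with 2 or more (253) -0.38. The share called lower was 1.98%, 3.61% and 7.51% in the same order, and the share called higher 3.41%, 2.44% and 0.395%. For CAGTGTT the medians were -0.12, -0.19 and -0.23, with 2.06%, 3.52% and 3.48% called lower. The medians kept this order in each of the 16 other settings computed. In hair germ of the same pups the medians for CAGTATT were -0.04, -0.19 and -0.33. UTR length moved with the number of sites, with a median of 1173 bases for 0 and 3656 bases for 2 or more CAGTATT sites. Within UTRs of at least 500 and under 1500 bases 1.77% of genes without a CAGTATT site and 5.45% of those with one were called lower. In UTRs of 1500 bases and more the shares were 2.55% and 4.23%. In UTRs under 500 bases they went the other way, with 1.34% of 1416 genes without a site and 0% of 41 with one. Without pup 4, or without the Rn45s-rich libraries, 0 genes with 2 or more CAGTATT sites were called lower. No test was made of these differences between classes of genes.

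**Figure D2:**
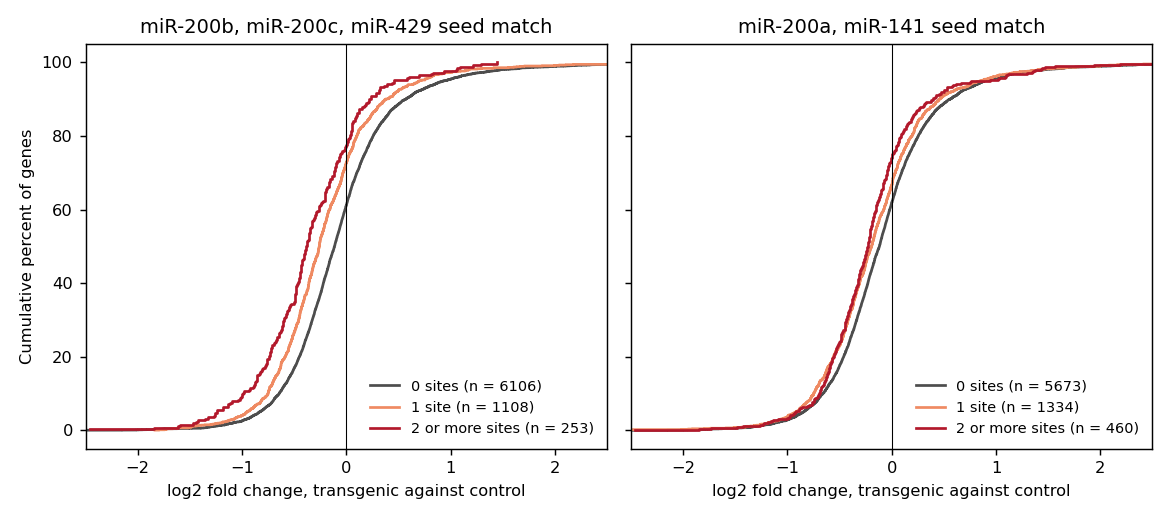
Cumulative percent of genes (vertical axis) against the log2 fold change of transgenic over control IFE (horizontal axis, shown from -2.5 to 2.5), for genes at 10 CPM or more in both controls. Lines separate genes by their number of 3′UTR matches to the seed of miR-200b, miR-200c and miR-429 (left, medians -0.11, -0.26 and -0.38) and the seed of miR-200a and miR-141 (right, medians -0.12, -0.19 and -0.23). Lines further to the left hold lower fold changes.

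Of the 192 falling genes 180 had a 3′UTR in the annotation, 95 of these (52.8%) held a site of either kind, and 16 (8.89%) held 3 or more. Among all 7467 genes at this level 34.4% held a site and 355 (4.75%) held 3 or more. The site shown for each gene below, which was picked because an A follows the match, ends a stretch of 30 bases of the 3′UTR on the gene's own strand, with the 7 matching bases in capitals. All coordinates are on GRCm38.
Ptpn14, chr1:189873443-189873472: taataacttattcattttgtctCAGTATTa
Ptpn14, chr1:189870307-189870336: gaaccacacgttgactgatctgCAGTGTTa
Akap2, chr4:57896627-57896656: tgtatttaaaaaaaaatagcctCAGTGTTa
Egfr, chr11:16912607-16912636: gtaaacaaacaaacaaaaaaccCAGTATTa
Nfia, chr4:98117096-98117125: gaggtgtacacttacttaaattCAGTATTa
Slc16a1, chr3:104657926-104657955: gtccataggatttacataaggtCAGTGTTa
Crybg3, chr16:59492356-59492385: tgggtacctcttatgggtgtggCAGTATTa
Zeb2, chr2:44988108-44988137: atgtgcccgcactacagtgcatCAGTATTa
Ptpn14, a phosphatase that restrains YAP, held 3 CAGTATT and 4 CAGTGTT sites and fell from 484 and 411 to 173 and 161 CPM (log2 fold change -1.42, SE 0.20, edgeR adjusted p = 0.00119). Akap2, an anchor for protein kinase A, held 2 and 4 sites and fell from 88.1 and 116 to 26.6 and 30.2 CPM (-1.84). Nfia, a transcription factor of the nuclear factor I family, held 3 and 1 and fell from 180 and 187 to 77.7 and 83.4 CPM (-1.19). The arms did not overlap in any of the 192 falling genes, and these 3 were named after their values were seen. Their separation is therefore no result about genes with sites. Slc16a1, a monocarboxylate transporter, held 2 and 2 (-1.18), Crybg3 held 3 and 1 (222 and 221 to 109 and 98.8 CPM, -1.09) and Egfr 2 and 1 (-1.44). Also among the 16 were the basal keratinocyte transcription factor genes Trp63 (-0.81), Tfap2a (-0.72) and Bcl11b (-0.99), as well as Lamc1 (-0.89), Satb1 (-0.89) and Nfib (-0.81). Zeb2 held 5 CAGTATT and 4 CAGTGTT sites, of which 6 were followed by an A, and rose. Vim, Krt15 and Krt14 held 0 of either.

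Macrophage markers and genes of leukocyte signalling rose in transgenic IFE. Of 24 tested macrophage markers 23 rose and 0 fell, with a median of 4.20, and of 27 tested genes of leukocyte signalling 26 rose and 0 fell, with a median of 4.08, against 4.99% of all genes called higher. Of all 6244 genes under 10 CPM in a control 0 were called lower, so members at that level had little room to fall. Csf1r, the receptor for colony-stimulating factor 1, stood at 67.7 and 26.3 CPM in the controls and 969 and 707 CPM in transgenic pups (log2 fold change 4.18, SE 0.62, edgeR adjusted p = 0.00178). Lyz2, lysozyme of myeloid cells, went from 4.88 and 5.01 to 339 and 237 CPM (5.86), and C1qa, a subunit of complement C1q, from 5.57 and 2.97 to 223 and 141 CPM (5.51). The transgenic libraries were high in all of these, pup 4 above pup 6, and control pup 3 was the higher of the controls in Csf1r and C1qa. Of the defining markers Emr1, which encodes F4/80, was at 15.8 and 10.7 against 220 and 183 CPM, Cd68 at 11.3 and 2.38 against 126 and 88.6 CPM, and Mrc1, the mannose receptor, at 60.6 and 26.7 against 767 and 596 CPM. The marker that did not rise was Cd163 (-0.9). Summed over the list the level was 427 and 172 CPM in controls and 5860 and 4360 CPM in transgenic pups, and the part of admixed macrophages in the changes reported here was not tested. Without both libraries of pup 4, 17 macrophage markers and 15 leukocyte signalling genes rose, at medians of 4.00 and 3.99, and without the Rn45s-rich libraries 19 and 17 rose, at 4.92 and 4.28.

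The rises extended to the working parts of phagocytes. Of 26 lysosome and phagocytosis genes 19 rose and 0 fell (median 2.15), among them the cathepsin genes Ctss (40.1 and 34.1 to 634 and 554 CPM), Ctsb (270 and 139 to 1076 and 747 CPM) and Ctsz, while the membrane protein genes Lamp1 (376 and 276 to 451 and 344 CPM, adjusted p = 0.633) and Lamp2 were not called. Atp6v0d2, a proton pump subunit of osteoclasts and macrophages, had 0 counts in both controls and 10.3 and 11.7 CPM in transgenic pups. Of 24 Fc and pattern receptor genes 18 rose and 0 fell (median 4.42, or 4.20 with genes at 0 in the controls set to their bound), led by Clec4e, Clec7a and Clec4n, lectins that sense microbes. Of the 25 found members 4 and 6 had 0 counts in control pups 3 and 5. Such genes had little room to fall, so nothing is read from the absence of falls. Dock2, an activator of Rac in leukocytes, went from 6.27 and 4.58 to 113 and 96.0 CPM, low in the controls and high in both transgenic pups. Complement and coagulation genes rose in 10 of 20 cases, with the 3 C1q subunits, Itgam and F13a1 among them, and Cd55, which protects cells from complement, fell (-1.48). Without pup 4 there were 10 lysosome, 8 receptor and 7 complement genes higher, and without the Rn45s-rich libraries 12, 8 and 8.

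Dcstamp, which encodes a protein of the fusion of macrophages into osteoclasts and giant cells, had the largest fitted rise among genes whose fitted mean was at least 2 on the log2 CPM scale. It had 0 and 1 counts in control pups 3 and 5 against 440 and 230 counts in transgenic pups 4 and 6, a ratio of 569 (interval 102 to 22490, counting error only). Others of the 12 largest were Cpsf4l, which had 0 control counts and was at least 34.5-fold higher, Pde1b, a phosphodiesterase gene (ratio 222, 61.1 to 1837), Parvb, a focal adhesion protein gene (238, 42.5 to 9453), Hdac9, a histone deacetylase gene (118, 32.5 to 982), and Il16, a chemoattractant of lymphocytes (83.7, 28.4 to 408). Lhfpl2 went from 1.92 and 0.0849 to 87.0 and 54.4 CPM, and the myeloid receptor gene Gp49a from 1.22 and 0 to 56.1 and 57.2 CPM. Of the 707 rising genes 14 had 0 counts in both controls, so folds of such genes rest on few control reads.

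**Figure D3:**
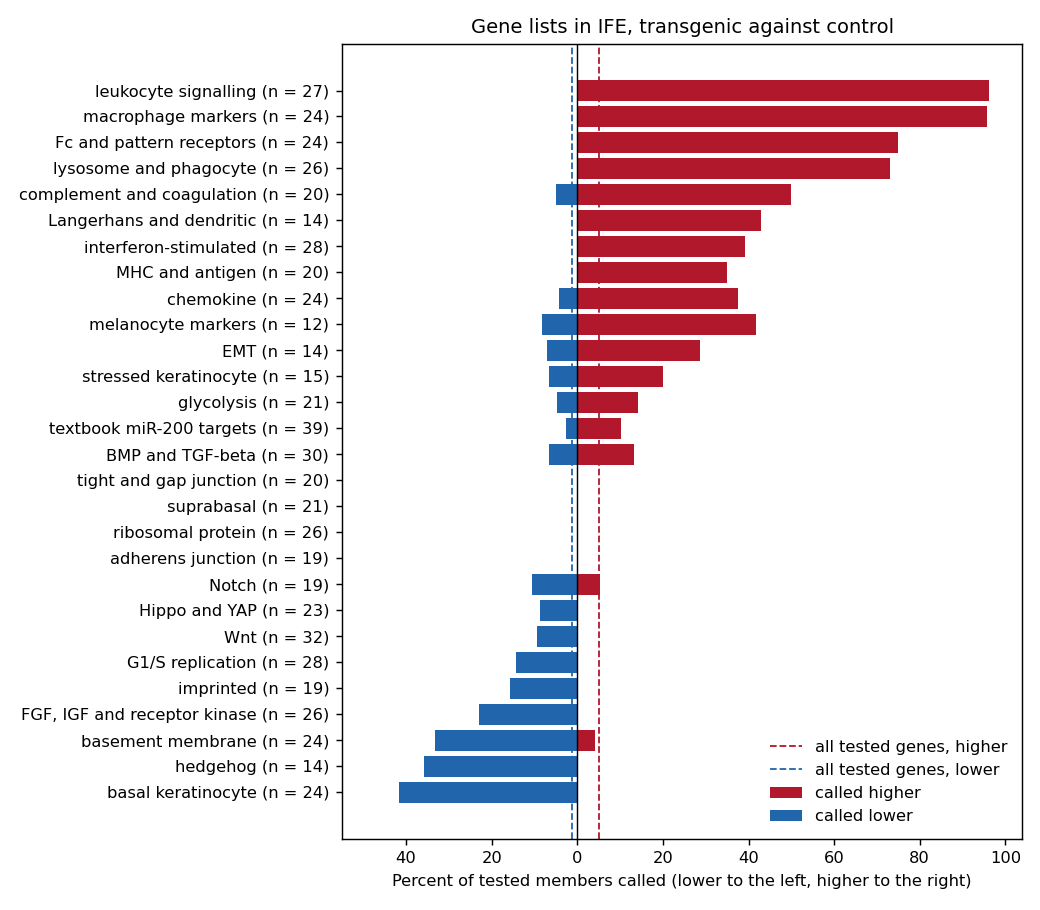
Percent of the tested members of 28 gene lists called higher (red, to the right) or lower (blue, to the left) in transgenic IFE, with the number tested in parentheses. Dashed lines mark the shares over all tested genes, 4.99% higher and 1.35% lower. Leukocyte and macrophage lists reach 26 of 27 and 23 of 24, and the basal keratinocyte list is lowest with 10 of 24 lower.

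Signals to and from leukocytes also rose. Of 24 tested chemokine, cytokine and receptor genes 9 rose and 1 fell (median 3.01, or 2.88 at the bound). Cxcl2, a neutrophil attractant, went from 1.39 and 4.33 to 44.6 and 44.7 CPM (log2 fold change 3.80), Csf1, the ligand of Csf1r, from 16.9 and 14.5 to 155 and 83.5 CPM (2.93), and the chemokine receptor gene Cxcr4 from 12.7 and 16.5 to 119 and 61.6 CPM (2.60). Cx3cr1, a receptor of macrophages and of dendritic cells, went from 50.5 and 9.08 to 432 and 312 CPM. The fall was that of Cxcl14 (416 and 581 to 257 and 265 CPM, -0.94), a chemokine that keratinocytes make. With the Rn45s-rich libraries or pup 4 left out 1 gene of this list rose. Antigen presentation genes rose in 7 of 20 cases, for instance B2m, the light chain of MHC class I (39.2 and 35.6 to 250 and 243 CPM, 2.72), and Cd74, the invariant chain of class II (3.05). The pups of an arm stood close together in B2m. Without pup 4, 2 genes of this list rose, and without the Rn45s-rich libraries 3.

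Interferon-stimulated genes were higher in transgenic IFE, and most of their calls were lost without pup 4. All 28 tested members had a positive log2 fold change, 27 without overlap of the arms (27.9% of all genes did so), and 11 were called, with a median of 2.91. Oas1a, an antiviral sensor of double-stranded RNA, went from 0.522 and 0 to 18.9 and 11.3 CPM, Mx1, an antiviral GTPase, from 1.57 and 0.424 to 25.2 and 15.8 CPM, and Oasl2 from 2.44 and 1.70 to 50.3 and 34.7 CPM. Pup 4 was the higher of the transgenic pair in these genes. With both libraries of pup 4 left out 1 member was called, and without the Rn45s-rich libraries 0, at medians of 2.72 and 3.48, while a fit of the 4 IFE libraries alone called 19. The promoter of Oas1a is shown, since the genes of this list moved one way and the element that interferon factors bind is defined by its sequence. It covers 250 bases before and 50 after the RefSeq start, chr5:120907476-120907775 of GRCm38.p6, minus strand, with the matches in capitals, which are 2 copies of GAAA with 2 bases of any kind between them, searched on both strands, and here 2 matches overlap.
Oas1a: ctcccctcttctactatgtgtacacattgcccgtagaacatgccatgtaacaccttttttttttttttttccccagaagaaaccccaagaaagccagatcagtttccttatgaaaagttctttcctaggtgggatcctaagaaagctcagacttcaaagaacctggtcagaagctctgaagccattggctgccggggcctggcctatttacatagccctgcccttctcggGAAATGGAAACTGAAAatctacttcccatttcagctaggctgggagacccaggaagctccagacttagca
The motif was in 9 of 20 promoters of tested list members with a RefSeq window and in 3.02% of 10306 promoters of all tested genes. Of these 9 genes Oas1a was the only one called. The octamer GAGGAAGT, to which the myeloid factor PU.1 binds, was in 1 of 17 macrophage, 2 of 20 leukocyte signalling and 2 of 17 lysosome promoters, against 3.14% of promoters of all tested genes.

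Markers of other cell types were followed in the same libraries. Langerhans and dendritic cell markers rose in 6 of 14 cases, but Cd207, which encodes langerin, was at 0 counts in both controls and at 3.51 and 4.53 CPM in transgenic pups without a call (edgeR adjusted p = 0.155), while Itgax (CD11c) went from 6.09 and 2.63 to 75.7 and 60.4 CPM and Cd83, a marker of activated dendritic cells, from 15.5 and 8.66 to 290 and 165 CPM. Their summed level was 105 and 49.3 CPM in controls against 705 and 573 CPM. Of 12 melanocyte markers 5 rose and 1 fell, with sums of 71.4 and 78.6 against 189 and 161 CPM. The median was 4.75, or 3.72 with genes at 0 in the controls set to their bound, and 10 were above 0. Unlike most of the list, Tyr, the defining enzyme of pigment synthesis, was at 18.6 and 12.8 against 14.8 and 11.6 CPM. The fall was that of Trpm1 (47.0 and 57.1 to 18.6 and 12.2 CPM), a melanocyte channel gene. T and NK lymphocyte markers summed to 333 and 271 against 330 and 300 CPM with Cd3g at 0 in all 4 libraries, although Il7r, a receptor of lymphocytes and some myeloid cells, rose from 5.57 and 0.764 to 116 and 76.6 CPM. Mast cell and basophil markers summed to 1.57 and 3.65 against 14.6 and 21.5 CPM, with Cpa3 and Mcpt4 at 0 in all 4 libraries and 1 of 3 tested members higher, the growth factor receptor gene Kit. Merkel cell markers summed to 13.2 and 9.08 against 28.3 and 41.6 CPM, with the defining factor gene Atoh1 at 0 in all 4 and 1 of 10 higher, the keratin gene Krt18 (log2 fold change 4.75). The alpha and beta haemoglobin genes were at 0 in all 4 libraries. Endothelial markers summed to 5.05 and 3.14 against 27.1 and 21.8 CPM with 0 of 7 called by edgeR or DESeq2 and 4 at an unadjusted p under 0.05 in edgeR. Fibroblast markers summed to 1440 and 1510 against 621 and 757 CPM, lower in transgenic pups, and Postn, a matrix protein that accounts for most of that sum, fell (1156 and 988 to 408 and 489 CPM). Without pup 4, 3 Langerhans and dendritic and 2 melanocyte markers rose, and without the Rn45s-rich libraries 4 and 1. The part of any of these cell types in the changes was not tested.

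**Figure D4:**
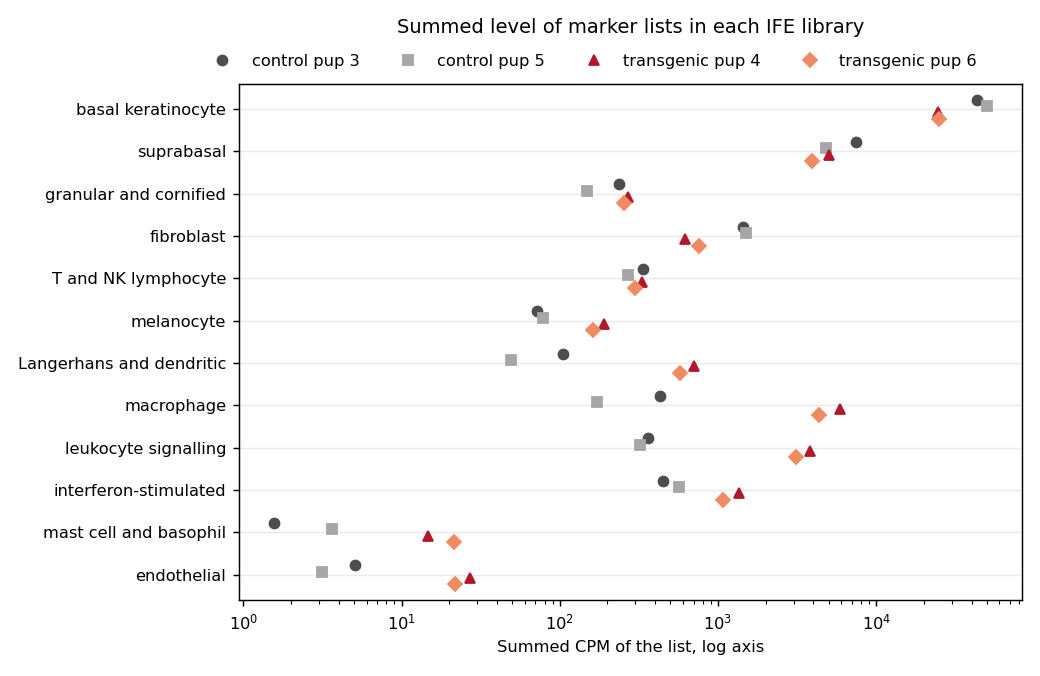
Summed CPM of the found members of 12 gene lists (log axis) in each IFE library, with circles and squares for control pups 3 and 5 and triangles and diamonds for transgenic pups 4 and 6. Macrophage sums are 427 and 172 CPM in controls and 5860 and 4360 in transgenic pups, basal keratinocyte sums 43600 and 50000 against 24700 and 24900.

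Basal keratinocyte genes were lower, and genes of the upper layers were not shown to change. Keratins 5 and 14, which define basal keratinocytes, were abundant in all 4 libraries, as the label has it. Krt5 stood at 15066 and 13793 CPM in controls and 6947 and 6615 CPM in transgenic pups (log2 fold change -1.09, SE 0.33, edgeR adjusted p = 0.0784, not called). Krt14 stood at 9082 and 11675 against 4684 and 5102 CPM (-1.08, adjusted p = 0.0484), so its call is near the threshold. Of 24 tested basal genes 10 fell and 0 rose, with a median of -0.80 and 23 below 0. Over all tested genes 1.35% were called lower. Of genes at 10 CPM or more in both controls with an annotated 3′UTR 63.4% were below 0. Of 21 spinous layer genes edgeR called 0, with 7 at an unadjusted p under 0.05, and DESeq2 called 3 lower. Krt1 was at 2509 and 1059 against 1443 and 990 CPM and Krt10 at 1802 and 529 against 1059 and 689 CPM, so the arms overlapped and control pup 3 was highest. Of 17 granular and cornified layer genes edgeR and DESeq2 called 0 (median 0.55, 2 at an unadjusted p under 0.05 in edgeR), and Lor, loricrin of the cornified layer, was near the floor at 1.39 and 1.78 against 4.05 and 4.91 CPM. Basal sums fell as macrophage sums rose, and whether the fall of basal genes goes beyond a smaller share of keratinocyte RNA was not tested. With library size alone 2 basal genes fell at a median of -0.63, and 1 fell without pup 4 or without the Rn45s-rich libraries (medians -0.65 and -0.84).

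Some growth factor receptor genes and a few imprinted growth genes fell, where 1.35% of all tested genes were called lower. Of 26 genes of FGF, IGF and related receptor signalling 6 fell and 0 rose (median -0.49): the receptor genes Fgfr2 (914 and 888 to 466 and 519 CPM), Fgfr3 (238 and 166 to 114 and 93.8 CPM) and Met (203 and 221 to 123 and 118 CPM), the adaptor gene Irs1, the binding protein gene Igfbp3 and the ligand gene Igf2. The pups of an arm stood close together in Fgfr2 and Met, while the controls were further apart in Fgfr3. H19, an imprinted noncoding RNA (chr7:142575530-142578146), had the largest fall, from 4410 and 13115 to 890 and 1309 CPM (log2 fold change -2.99, SE 0.48, edgeR adjusted p = 0.00274), and Igf2, its imprinted neighbour (chr7:142650768-142666816), went from 792 and 740 to 140 and 124 CPM (-2.54, SE 0.40, adjusted p = 0.00247). The controls were far apart in H19 and close together in Igf2. Peg3 also fell (500 and 818 to 256 and 279 CPM, -1.30), and the other 16 tested imprinted genes were not called, for example Cdkn1c (7.66 and 6.11 against 1.48 and 2.12 CPM, adjusted p = 0.317) and Grb10. Without the Rn45s-rich libraries there were again 3 calls, and without pup 4 there was 1. Of the receptor list 1 gene fell in either of these settings, the ligand gene Igf2, at a median of -0.52 in both. No receptor gene of the list was called lower there. Without the Rn45s-rich libraries 1 gene of the list was called higher.

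Of 32 Wnt genes 3 fell and 0 rose (median -0.54), the ligand genes Wnt16 and Wnt7a and the receptor gene Ror1. Over all tested genes 1.35% were called lower and 4.99% higher. Among those at 10 CPM or more in both controls 2.42% were called lower. Wnt16 went from 93.2 and 80.5 to 25.5 and 26.5 CPM (log2 fold change -1.73, SE 0.30, edgeR adjusted p = 0.00482), Wnt7a from 20.7 and 31.4 to 7.96 and 7.33 CPM (-1.80, adjusted p = 0.0261), and Ror1, a receptor for Wnt5a, from 84.3 and 47.5 to 11.1 and 8.39 CPM (-2.77, adjusted p = 0.00291). In all 3 genes, as in all 192 genes called lower, both transgenic pups lay below both controls. Wnt4, the most abundant ligand named here, was at 441 and 371 against 228 and 196 CPM without a call (adjusted p = 0.0665). With library size alone there were again 3 calls, and with pup 4 or the Rn45s-rich libraries left out there were 0. In the Notch list of 19 genes the ligand gene Dll1 (151 and 125 to 57.2 and 59.8 CPM) and the modifier gene Lfng fell and Rbpj, the DNA-binding partner of Notch, rose (103 and 117 to 243 and 253 CPM, 1.17). In the Hippo list of 23 genes Yap1, the growth-promoting coactivator, fell from 268 and 293 to 136 and 149 CPM (-0.98, adjusted p = 0.0107) and its binding partner gene Amotl2 fell (-1.23), while its paralogue Wwtr1 was not called (190 and 279 against 139 and 136 CPM). In the Notch and Hippo lists 0 genes were called in either setting, with medians from -0.42 to -0.58.

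TGF-beta and BMP genes moved in both directions, where 4.99% of all tested genes were called higher and 1.35% lower. Tgfbr1, a type I receptor, went from 96.3 and 99.0 to 495 and 465 CPM (log2 fold change 2.30, SE 0.19, edgeR adjusted p = 8.01e-05), Tgfb1 from 12.7 and 26.1 to 95.0 and 94.8 CPM (2.25), the feedback inhibitor gene Smad7 from 32.2 and 37.1 to 121 and 91.2 CPM (1.60), and Id2, an inhibitor of basic helix-loop-helix factors, from 12.7 and 12.8 to 59.5 and 56.4 CPM (2.18). Tgfbr1 varied little within either arm. The BMP receptor gene Bmpr1b (85.7 and 140 to 58.3 and 54.5 CPM) and the transducer gene Smad5 (208 and 237 to 93.3 and 102 CPM) fell, and the other 24 of 30 tested genes were not called. Of 26 hair germ and placode genes 3 rose and 1 fell, with a median of -0.07 that turned to 0.07 with library size alone. Trps1 (14.6 and 9.0 to 111 and 97.1 CPM, 3.18), Nfatc1 (63.9 and 71.6 to 228 and 194 CPM, 1.63) and Runx1 (61.5 and 95.8 to 176 and 213 CPM, 1.30) rose, Cxcl14 fell, and Shh, which marks the hair germ, was at 6.27 and 6.71 against 5.80 and 14.1 CPM. Without pup 4, 1 gene of the TGF-beta and BMP list rose and 0 fell, and without the Rn45s-rich libraries 3 rose and 0 fell.

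Lipid, sugar and stress genes gave a few calls each, where 4.99% of all tested genes were called higher and 1.35% lower. Of 21 genes of fatty acid and lipid droplet metabolism 3 rose: the desaturase gene Fads1 (13.1 and 7.81 to 97.4 and 75.5 CPM), Dgat2, an enzyme of triglyceride synthesis (3.83 and 1.36 to 20.6 and 22.9 CPM), and Plin2, the droplet coat protein gene (12.9 and 7.39 to 75.1 and 55.3 CPM). Glycolysis genes had a median of 0.62 with 3 of 21 higher, Gpi1, Pfkfb3 and Slc16a3, and Slc16a1 lower. Genes of a list on keratinocyte alarm diverged. Il1a (5.22 and 4.33 to 49.8 and 37.4 CPM, log2 fold change 3.21), Il1b (5.57 and 1.44 to 49.5 and 28.6 CPM, 3.68) and the plasminogen activator gene Plau (107 and 149 to 567 and 440 CPM, 1.97) were higher. The cytokine gene Il33 was lower (-1.91). Which cells of the libraries held these messages was not tested. The haem oxygenase gene Hmox1 rose (6.27 and 14.2 to 66.9 and 49.0 CPM) and the chaperone gene Dnajb1 fell (324 and 434 to 197 and 220 CPM). Abca12, a lipid transporter of the skin barrier, rose (56.9 and 28.4 to 107 and 83.0 CPM, 1.17, adjusted p = 0.0466), the 1 call among 23 barrier lipid genes. Among sterol synthesis (24), oxidative phosphorylation (25), ribosomal protein (26), histone (19) and p53 pathway (21) genes edgeR called 0, with 2, 0, 1, 2 and 1 at an unadjusted p under 0.05, and DESeq2 called 1 histone gene lower. Their medians were -0.10, -0.06, -0.02, -0.12 and 0.06, the first 4 of which turned positive with library size alone. Without pup 4, 1 lipid, 0 glycolysis and 1 alarm gene rose, and without the Rn45s-rich libraries 1, 0 and 0.

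Replication genes were called lower in 4 of 28 cases and mitosis genes in 1 of 28. The share was 1.35% of all tested genes and 2.42% of those at 10 CPM or more in both controls. All 28 genes of DNA replication and the G1/S transition and all 28 of mitosis had a negative log2 fold change, with medians of -0.62 and -0.56. Genes at 10 CPM or more in both controls had a median of -0.15, and 63.4% of those with an annotated 3′UTR were below 0. The sums were 2250 and 2290 against 1260 and 1610 CPM for the former and 3460 and 3400 against 2200 and 2600 CPM for the latter, so the arms did not overlap and pup 4 was lowest. Without pup 4, or without the Rn45s-rich libraries, 0 genes of either list were called, at medians of -0.36 and -0.41 for replication and -0.40 and -0.31 for mitosis.

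The title of the series names adhesion and polarity, and lists of such genes were followed in IFE. Over all tested genes 4.99% were called higher and 1.35% lower. With lists this short, 0 and 2 calls are not shown to differ. Of 32 focal adhesion and integrin genes 5 rose and 3 fell (median -0.23), among them Itga9, an integrin subunit gene (5.40 and 7.89 to 52.1 and 48.1 CPM, 2.86), and Ptk2, the focal adhesion kinase gene (114 and 105 to 58.4 and 66.7 CPM, -0.81). Of 16 desmosome genes 2 fell, Perp (-1.09) and Dsg3 (-0.80), where DESeq2 called 6 lower, and of 21 planar polarity genes 2 fell, Celsr1 (-1.20) and Ptk7 (-0.85). Without pup 4, or without the Rn45s-rich libraries, 0 genes of these 3 lists were called. Of 19 adherens junction, 20 tight and gap junction and 22 apical-basal polarity genes edgeR called 0, with medians of -0.38, -0.10 and -0.33, the second of which turned to 0.02 with library size alone. At an unadjusted p under 0.05 edgeR gave 3, 2 and 6 genes of these lists, all lower, and DESeq2 called 1, 0 and 1 of them lower. Cldn1, a tight junction claudin, was at 250 and 331 against 180 and 172 CPM (-0.72, adjusted p = 0.111), and the adherens junction partner gene Ajuba at 226 and 141 against 81.9 and 102 CPM (-0.99, adjusted p = 0.0853). Numa1, which orients the mitotic spindle, had a log2 fold change of -0.70. The genes used for the sort were not called. Cdh3, P-cadherin, was at 293 and 386 against 281 and 309 CPM, with overlapping arms. Itga6, alpha6 integrin, was lower in both transgenic pups, at 1039 and 1394 against 644 and 769 CPM, and near the threshold (edgeR adjusted p = 0.0598). Of the basement membrane list 8 of 24 genes fell and 1 rose, with Lamb2 (189 and 256 to 113 and 93.9 CPM) and Lamc1 (357 and 462 to 207 and 235 CPM) among the laminin chains. Without pup 4, or without the Rn45s-rich libraries, 0 basement membrane genes fell, at medians of -0.55 and -0.81.

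Several falls belonged to no list. Slc1a3, a glutamate transporter gene, went from 66.9 and 142 to 16.2 and 20.1 CPM (log2 fold change -2.53, SE 0.39, edgeR adjusted p = 0.0023), Pgm5, a gene of muscle and focal contacts, from 21.4 and 22.2 to 4.05 and 3.02 CPM (-2.66), and Dlk2, a membrane relative of Dlk1, from 46.7 and 27.9 to 9.98 and 6.88 CPM (-2.15). Ccrl1, a scavenger receptor of chemokines, went from 93.3 and 72.4 to 14.2 and 21.5 CPM (-2.19), Slc15a2, a peptide transporter gene, from 129 and 183 to 49.1 and 29.1 CPM (-2.01), and H60c, a stress ligand of skin for lymphocyte receptors, from 86.2 and 75.0 to 26.2 and 15.9 CPM (-1.95). Genes were named here only if their arms did not overlap and their fitted mean was at least 2 on the log2 CPM scale. Neither trait is therefore a result. Chst3, a chondroitin sulfotransferase gene (-1.96), and C1qtnf1 (-2.00) fell likewise. Nedd4, a ubiquitin ligase gene, was far more abundant and also fell (1514 and 1621 to 633 and 708 CPM, -1.23, SE 0.20, adjusted p = 0.00314), which held 2 CAGTGTT sites.

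In hair germ of the same pups most of these genes had the same direction. Of the 707 genes called higher in IFE 617 also had a positive log2 fold change in hair germ (median 1.09), and of the 192 called lower 183 had a negative one (median -0.59). The share of all tested genes with the same sign in both populations is not given here, so nothing is read from this agreement. Hair germ called 108 genes higher (0.762%) and 27 lower (0.19%), and 67 higher and 18 lower were shared, which is 9.48% and 9.38% of the IFE calls and 62.0% and 66.7% of those in hair germ. The pups are the same, so the populations are not independent samples. A test of the difference between the effects called 19 genes (0.134%), all with a larger rise in IFE, and 0 (0%) the other way, while 8.09% of genes had an unadjusted p under 0.05. Vim rose by 4.80 in IFE and 2.30 in hair germ (log2 scale, difference 2.51, edgeR adjusted p = 0.0284), Ptprc, the leukocyte antigen CD45, by 4.09 and 1.40 (2.69, adjusted p = 0.0284), and Tgfbr1 by 2.30 against 0.42 (1.87, adjusted p = 0.0436). Many differences were not called, including that of Zeb2 (4.90 against 1.46, difference 3.44, adjusted p = 0.0973), and these 19 calls went to 0 without pup 4 or without the Rn45s-rich libraries.

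**Figure D5:**
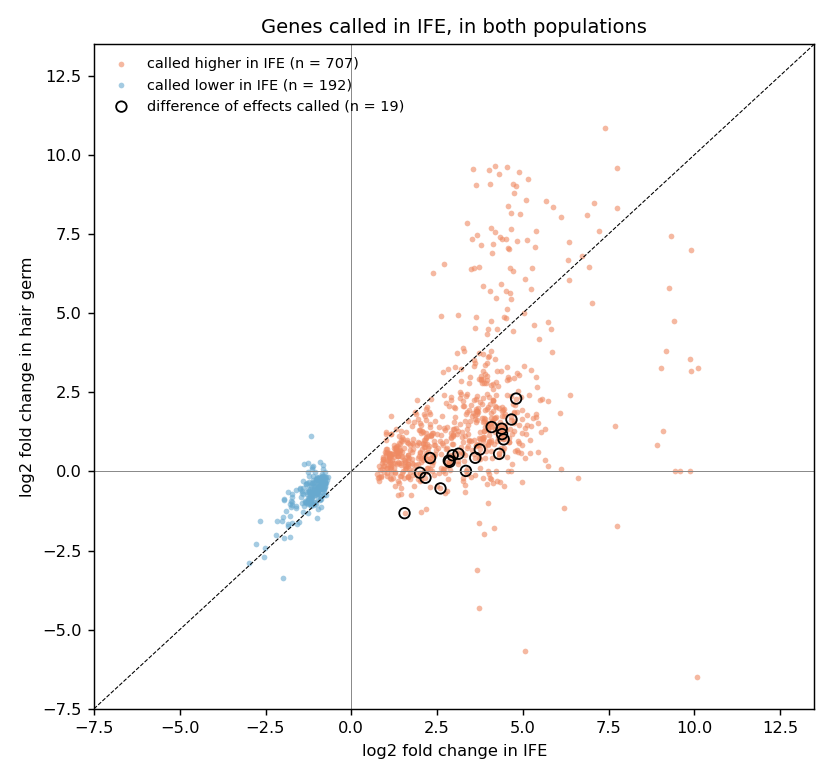
Log2 fold change of transgenic over control in IFE (horizontal axis) and in hair germ of the same pups (vertical axis) for the 899 genes called in IFE, 707 higher and 192 lower. Open circles mark the 19 genes whose effects were called different, all below the dashed line of equal change.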

How the data were processed

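RNA was taken from sorted cells and sequenced from a low-input stranded total RNA kit, per the labels' protocols. The deposited counts are whole reads per gene symbol for each library, and TopHat, HTSeq, DESeq2 and mm10 (GRCm38) are named in the submitters' processing notes, with no version, and the strand setting was not given in these sources. Without a known strand setting, overlapping and antisense genes cannot be told apart, and gene families with near-identical copies are uncertain. Of the reads in the deposited count files 23.4% to 41.4% were assigned to a gene in the 4 IFE libraries, and 5 summary lines (31.6%, 44.7%, 30.0% and 42.8% without a feature in control pups 3 and 5 and transgenic pups 4 and 6) were left out. The normalized matrix was not used, and some genes are not reported here.

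From 23433 symbols, 14176 passed edgeR's filterByExpr over all 8 libraries. Group means of the 4 groups were fitted with TMM scaling and edgeR 4.0.16 (quasi-likelihood test, R 4.3.3, residual df 4), and p-values were adjusted over all genes by the Benjamini-Hochberg method at 0.05. DESeq2 1.42.0 and limma 3.58.1 were alternatives, as were other scalings, filters and left-out libraries. The fit was checked on simulated counts. A count of 0 was bounded by 3 counts over the group, and intervals cover counting error only.

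Members and gene lists were chosen with earlier results of these data known. Named genes were, among calls whose arms did not overlap and whose fitted mean reached 2 on the log2 CPM scale, the 12 largest rises and falls, the 10 largest rises at 10 CPM or more in both controls, the 5 most abundant in each direction and the 5 largest differences from hair germ. Predicted and clone-named genes were passed over. From each list up to 4 members with the smallest p were added, with the sorting genes, the keratins 5 and 14, Zeb1, Zeb2, Cdh1, Epcam and the microRNA features. Defining markers of cell types and other genes, such as Ptpn14, Akap2, Nfia and Crybg3, were chosen after their values were seen.

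The labels number the pups, and IFE and hair germ of 1 number come from the same animal. The deviations of the 2 populations from their group means correlated at 0.117 in controls and 0.0868 in transgenic pups. Each pup is 1 animal, and there are 2 animals per arm. The p-values rest on a spread pooled over both populations (residual df 4) and moderated across genes. The fit held no term for the pup, so the 2 populations of a pup were treated as independent.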

Additional observations from a re-analysis of the deposited data

Results flagged for a closer look

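For 19 genes the edgeR test of the difference between the effect in IFE and that in hair germ passed an adjusted p under 0.05, and each had the larger rise in IFE. Of these 18 are given here. On the log2 scale the difference was 2.51 for Vim and 2.69 for Ptprc (adjusted p = 0.0284 for both), and 3.43 for Lsp1, a leukocyte protein that binds actin (0.031). It was 2.57 for Ptprj, 1.87 for Tgfbr1 and 3.33 for Akna (adjusted p = 0.0436 for each).

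At an adjusted p of 0.0478 the difference was 3.03 for Fmnl1, 3.04 for Lcp1, 3.75 for Dock2, 2.5 for Cd84, 3.06 for St6gal1 and 2.45 for Plxnd1. At the same adjusted p it was 3.18 for Ctsz, 2.57 for Elmo1, 2.05 for Ftl1, 2.36 for Epb4.1l2 and 2.87 for Ankrd44, and Cxcr4 had 3.14 (0.0485). The fitted hair germ effect was negative in Ftl1 (-0.04), Epb4.1l2 (-0.20), Ankrd44 (-1.32) and Cxcr4 (-0.54). The SEs of these hair germ effects are not given here, so no reversal is read from their signs. The part of macrophage RNA, whose summed markers were higher in transgenic IFE, was not tested.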

How the results depend on the processing

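The counts of 707 higher and 192 lower genes in IFE moved by over 1.5 times in these settings: edgeR's legacy fit (420 and 121), library size alone (42 lower), DESeq2's Wald test (304 lower), both libraries of pup 4 left out (203 and 4) and the 2 Rn45s-rich libraries left out (188 and 7). Leaving out 1 IFE library gave 236 to 468 higher and 22 to 89 lower, where the lone library of an arm is assumed to vary like the other groups. The other settings gave 496 to 1052 higher and 138 to 225 lower. All 707 and 192 genes kept their sign in every setting in which they were tested. The 19 differences from hair germ became 95 with library size alone, 43 with no filter, 2 with the legacy fit, 1 with limma-voom, 152 with DESeq2, 1 with Rn45s left out and 0 without pup 4 or the Rn45s-rich libraries, and 0 to 2 with 1 library left out. In the opposite direction, where edgeR called 0 (1147 genes had an unadjusted p under 0.05 in either direction), there were 2 with library size alone, 2 with no filter, 25 with DESeq2 and 0 to 2 with 1 library left out. The cause was not tested.

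With the pup as a replicate block in limma-voom (estimated correlation 0.184) 520 genes were higher and 176 lower in IFE, and 20 and 2 differed from hair germ. The 2 arms share no pup, so the block pairs only the populations.

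Of 125 called genes named here 33 were still called without pup 4, 35 without the Rn45s-rich libraries and 87 with library size alone. Among uncalled genes Krt10 changed sign without the Rn45s-rich libraries (0.40). With 1 library left out log2 fold changes spanned zero in Cd163 (-2.18 to 1.88), Cdh3 (-0.32 to 0.02), Grb10 (-0.07 to 0.16), Krt1 (-1.04 to 0.26), Krt10 (-1.04 to 0.79), Rn45s (-2.54 to 2.39), Shh (-0.15 to 1.11) and Tyr (-0.51 to 0.09). At these depths 3 counts correspond to 0.227 to 0.522 CPM.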
